A study of Homo sapiens with 6 samples.

Results

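EPB41 encodes protein 4.1R, an adaptor of the red cell membrane skeleton, and its transcripts were followed through every splice junction that the deposited tables list on the plus strand of chromosome 1 between 29213500 and 29446600 (hg19). The junctions were chosen by that position and by detection, that is at least 1 spliced read in some library, and 169 of the 780566 junctions in the series met it. Of the 169, 32 were annotated and 137 were not, and 112 carried fewer than 10 unique reads over the 6 libraries. Unique reads were found in all 6 libraries for 44 junctions, 13 of them unannotated. The letters GT and AG bounded the intron of 164 junctions, and GC and AG that of the other 5.

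The libraries were made from poly(A)+ RNA of K562 cells, an established erythroleukaemia line from a patient with chronic myeloid leukaemia. In 3 libraries the cells carried a wild-type U2AF1 knock-in and in 3 they carried U2AF1 S34F, a serine-to-phenylalanine substitution in a zinc finger of U2AF1, the small subunit of the factor that recognises the AG with which introns end. The wild-type cells thus carry a knock-in too, and the labels do not say how S34F was introduced. The labels do not say whether the 3 libraries of a group came from separate clones or cultures, so that p-values measure only the spread between these libraries. The comparison asks which splice sites of EPB41 were used differently with S34F. The libraries held from 18074706 to 39279169 uniquely mapped spliced reads, of which EPB41 took from 6576 to 17065. Markers of the cell line were not analysed here, because gene positions of this build were not used.

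Protein 4.1R links the spectrin and actin lattice to the membrane: its FERM domain binds band 3, glycophorin C and MPP1, and its spectrin-actin binding domain stabilises the contact between spectrin and actin. Loss of the protein from red cells causes hereditary elliptocytosis. The gene is known for alternative first exons, each with its own promoter, for paired acceptors that keep or remove an upstream start codon, and for a short exon of the spectrin-actin binding domain that is mostly skipped in early erythroid cells and mostly included in late ones.

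At the 3′ end of the gene, S34F libraries joined the last annotated 5′ splice site to different acceptors than wild-type libraries did. The intron begins at 29442316, after a 105 nt exon. Its annotated acceptor, here the proximal one, has the last intron base at 29443330. An unannotated middle acceptor at 29443658 lies 328 nt farther downstream, and an unannotated distal acceptor at 29444378 lies 1048 nt downstream of the proximal one. Every S34F library used the distal acceptor more, and the proximal one less, than every wild-type library. Whether the bases between these acceptors are coding was not analysed here, nor was the base before each AG.

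The distal acceptor took 37 of 721 reads from this 5′ splice site in wild-type replicate 1, 29 of 748 in replicate 2 and 20 of 496 in replicate 3. In S34F it took 265 of 1099 reads in replicate 1, 108 of 427 in replicate 2 and 278 of 1019 in replicate 3. As shares these are 5.13%, 3.88% and 4.03% in wild type, against 24.1%, 25.3% and 27.3% with S34F. The groups were far apart: the highest wild-type share had a 95% Clopper-Pearson interval of 3.6% to 7.0% and the lowest S34F share one of 21.6% to 26.8%, counting error only. Mean shares were 4.35% ± 0.68 and 25.6% ± 1.6 (SD, n = 3 each), which is 21.2 percentage points more in S34F. On the scale of log2 odds, the log2 ratio of distal reads to all other reads from the site, S34F was higher by 2.91 with an SE of 0.35, and edgeR gave an adjusted p of 8.09e-05.

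The proximal acceptor showed the counterpart, as it must where 1 of the acceptors of a site gains share. Wild-type libraries spliced to it in 94.6%, 96.0% and 95.8% of these reads, S34F libraries in 72.8%, 71.0% and 69.8%. Its mean share was 95.4% ± 0.75 in wild type and 71.2% ± 1.5 in S34F, so that it fell by 24.3 percentage points (edgeR adjusted p = 8.09e-05 for a log2 odds difference of -3.08, SE 0.35). The middle acceptor was nearly unused in wild type, with 2, 1 and 1 reads in replicates 1, 2 and 3, and had 33, 16 and 30 reads in S34F. Its mean share was 0.204% ± 0.072 in wild type and 3.23% ± 0.45 in S34F (edgeR adjusted p = 0.000649 for a log2 odds difference of 3.89, SE 0.59), a difference of 3.03 points, under the 10 points required of a call. Both unannotated acceptors together took 4.55% ± 0.75 of the reads in wild type and 28.8% ± 1.6 in S34F.

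**Figure D1:**
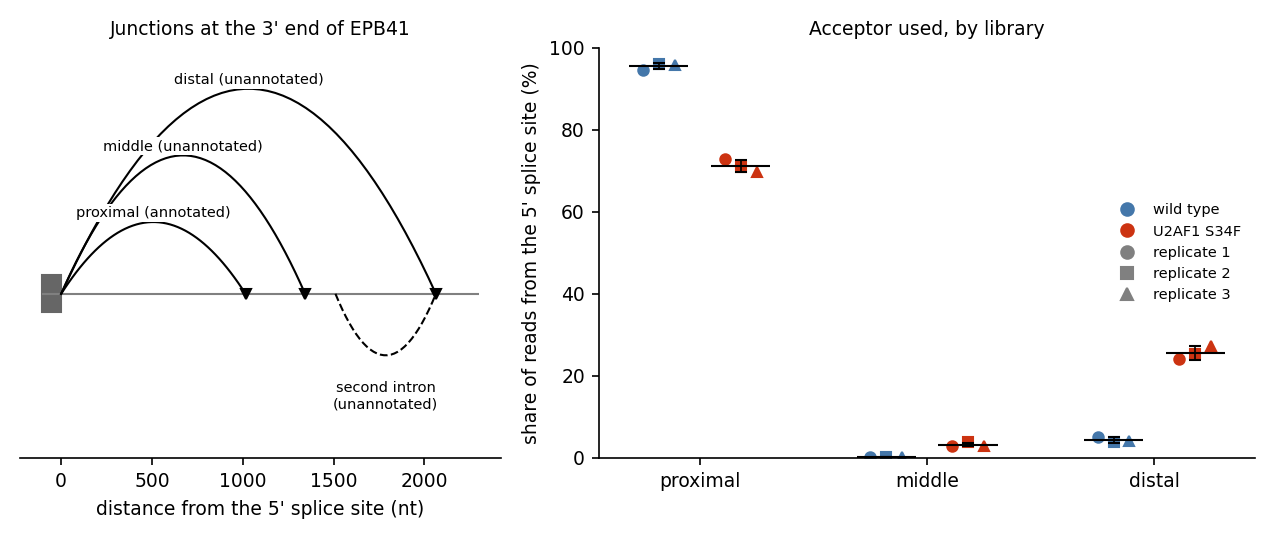
Left, the 3′ end of EPB41 drawn to scale in nt from the last annotated 5′ splice site (grey box, the 105 nt exon), with solid arcs for the introns to the 3 acceptors and a dashed arc for a further unannotated intron. Right, the share of reads from that 5′ splice site at each acceptor (%), 1 point per library, with lines and bars for the mean ± SD of 3 libraries: the distal acceptor lies between 24.1% and 27.3% in S34F and between 3.88% and 5.13% in wild type.

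A share cannot tell fewer proximal reads from more distal ones, so both were set against reads of the junction just upstream, from 29438961 to 29442210, in the same library. Per read of that junction there were 0.82, 0.83 and 0.91 proximal reads in wild type, against 0.59, 0.57 and 0.55 with S34F. Distal reads per such read were 0.044, 0.034 and 0.038 in wild type, against 0.20, 0.20 and 0.22 with S34F. The groups did not overlap in either measure, and the mean proximal ratio went from 0.85 ± 0.049 to 0.57 ± 0.019 (two-sided exact permutation p = 0.1, adjusted p = 0.16 over 8 such comparisons, 0.1 being the lowest value possible with 3 libraries a group). All reads leaving the last 5′ splice site amounted to 0.89 ± 0.048 per upstream read in wild type and 0.80 ± 0.0097 in S34F. Against the whole library, distal reads per 1000000 uniquely mapped spliced reads (RPM) were 1.45, 1.16 and 1.03 in wild type, and S34F libraries had 11.3, 5.98 and 7.08, a 6.67-fold ratio of means (two-sided exact permutation p = 0.1, adjusted p = 0.16). Proximal reads were 26.8, 28.8 and 24.5 RPM in wild type, against 34.1, 16.8 and 18.1 with S34F, and here the groups overlapped. Every library had more reads at the late than at the early end of the gene, and the ratio was higher in S34F. For the junction ending at 29442210 over the junction from 29314418 to 29319841 it was 1.31, 1.28 and 1.30 in wild type. S34F libraries had 1.33, 1.36 and 1.54 (two-sided exact permutation p = 0.1, adjusted p = 0.16), with replicate 3 the highest. The part of this ratio in the 3′ end result was not tested.

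A further unannotated intron, from 29443826 to 29444378, ended at the same distal acceptor. It had 8, 3 and 1 reads in wild type and 23, 11 and 32 in S34F, or 0.162 ± 0.14 and 0.801 ± 0.19 RPM. As a share of the reads into the distal acceptor, its mean in S34F differed from wild type by only -1.31 percentage points. That difference was not called (edgeR adjusted p = 0.80 for a log2 odds difference of -0.43). With the middle acceptor it bounds an unannotated exon of 167 nt, and with the proximal acceptor one of 495 nt. Relative to direct joining of the last 5′ splice site to the distal acceptor, the cassette measure (the mean of reads entering and leaving an exon, against the skipping junction) of the 167 nt exon averaged 7.71% ± 3.7 in wild type and 10.4% ± 1.0 in S34F, and the libraries of the groups overlapped (edgeR adjusted p = 0.81). Both exons share the reads leaving at 29443826. For the 495 nt stretch, where nearly all reads are those of the proximal acceptor, the measure was 91.7% ± 1.2 in wild type and 59.1% ± 1.8 in S34F (edgeR adjusted p = 0.00156 for a log2 odds difference of -2.93, SE 0.34) and repeats the shift between the proximal and distal acceptors.

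These events were compared with the rest of the transcriptome in fits over all events of a class, with calls at an adjusted p under 0.05 and a difference of at least 10 percentage points. In acceptor choice, the share of each junction among those from one 5′ splice site, 2.12% of 51522 events were called; of 38 EPB41 events 2 were, the proximal and distal acceptors above. These 2 shared the smallest adjusted p of the class, and events tied with them were not counted. With the replicate block the smallest edgeR adjusted p of the class was 1.13e-07, against 3.53e-07 (proximal) and 8.30e-07 (distal). Of the 1092 called events, 419 had a larger difference than the distal acceptor. In donor choice, the share among junctions to one acceptor, 0.934% of 48269 events were called and 0 of 38 in EPB41, with 3 of the 38 at an unadjusted edgeR p under 0.05, against 17.3% of all donor events. DESeq2 called 0 of the 38 and 183 donor events in all; limma called 0 in the whole class. Among cassette exons 2.74% of 19272 events were called, and 1 of 26 in EPB41, the 495 nt stretch. With no minimum difference, 2.04% of donor events and 0 of 38 in EPB41 were called, and 5.76% of cassette events and 2 of 26 in EPB41. EPB41 and its 3′ end were picked with results of these libraries known, so that these adjusted p-values are not independent evidence for choosing them.

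Limma on log2 odds, which called 0 events in the whole acceptor class, gave adjusted p = 0.066 for the proximal, middle and distal acceptors, with log2 odds of -3.08, 3.62 and 2.90. The cassette call was lost with limma (adjusted p = 0.0519) and without S34F replicate 3 (adjusted p = 0.0574), a fit that called 0 exons in all.

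**Figure D2:**
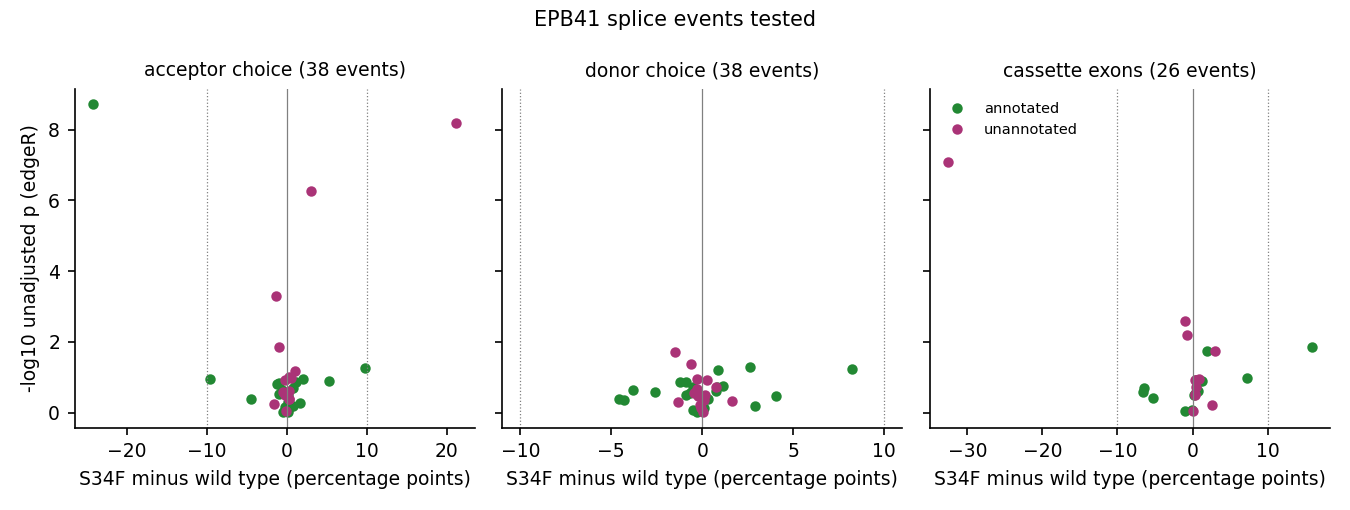
Difference in mean share between S34F and wild type (percentage points) against -log10 of the unadjusted edgeR p for every EPB41 event tested, in 3 panels for acceptor choice, donor choice and cassette exons; dotted lines mark 10 points. The proximal acceptor at -24.3 points and the distal acceptor at 21.2 points stand apart from the other acceptor events, and no donor event passes 10 points.

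Over all EPB41 events tested, those of the 3′ end included, shares in the 2 groups did not overlap in 13 of 38 EPB41 acceptor events, against 25.2% of all acceptor events tested. The same held for 7 of 38 donor events, against 22.4%, and for 7 of 26 cassette events, against 29.2%. Unannotated junctions other than those from 29442316 and 29443826, at the 3′ end, were counted next. They took 1.84%, 1.80% and 1.92% of all EPB41 reads in wild type, against 1.79%, 1.63% and 1.77% with S34F (two-sided exact permutation p = 0.1, adjusted p = 0.16). The total still held the 3′ end reads, so this difference is not independent of the 3′ end shift. With the 3′ end junctions counted, the unannotated share was 2.20% ± 0.090 in wild type and 3.77% ± 0.16 in S34F. Over all junctions of the series the unannotated share was 1.25%, 1.03% and 1.15% in wild type, against 1.30%, 1.24% and 1.38% with S34F.

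The amount of EPB41 RNA differed more between S34F libraries than between the groups. EPB41 junctions held 430, 445 and 360 RPM in wild type, against 727, 364 and 398 RPM with S34F. S34F replicate 1 stood apart, and the other S34F libraries lay within the wild-type range. The means were 412 ± 45 and 496 ± 201 (two-sided exact permutation p = 0.8, adjusted p = 0.9), and without S34F replicate 1 the S34F mean lay below wild type, with a difference of -31.0 RPM. The number of cells expressing the gene and the amount of its RNA per cell cannot be told apart here. Fitted one by one, 0 of 29 annotated EPB41 junctions that passed the low-count filter differed in level (edgeR, smallest adjusted p = 0.38, 0 at an unadjusted p under 0.05, against 13.7% of all junctions), against 0.203% of all 113065 junctions tested. DESeq2 called 0 of the 29 and 1310 junctions in all, and limma 0 of the 29 and 32 in all. The fit with no low-count filter called 2 of 32 EPB41 junctions, those into and out of the 63 nt exon described below (edgeR adjusted p of 0.018 and 0.0038), and 2.35% of all 218590 junctions. The median log2 fold was 0.23 over the 29 and 0.012 over all junctions, with 23 of the 29 above 0. The 29 lie along transcripts of the same gene and are not separate observations. Their folds include S34F replicate 1, and the share of all junctions above 0 was not computed. The proximal junction at the 3′ end was among the 6 below 0, with a log2 fold of -0.24 (SE 0.24, edgeR adjusted p = 0.70).

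**Figure D3:**
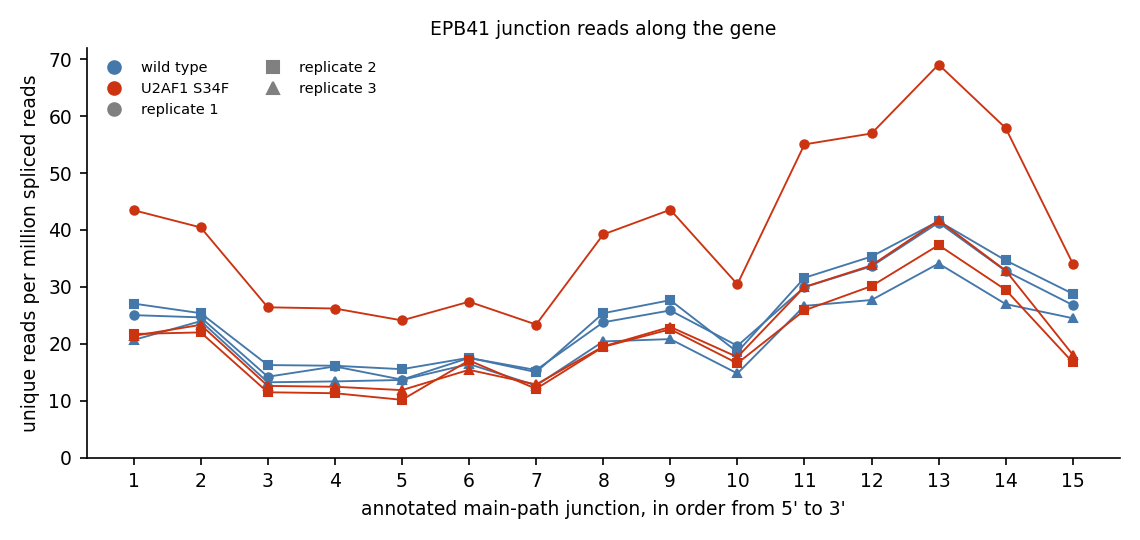
Unique reads per 1000000 spliced reads at the annotated junctions of the main path outside the cassette region, in order from 5′ to 3′, 1 line per library. S34F replicate 1 lies above the other libraries, and the last point, the proximal junction, is lowest in S34F replicates 2 and 3.

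The first exons came next. The annotated first exons end at 5′ splice sites 29213723, 29220350 and 29241281 and are joined to a pair of acceptors, at 29313942 and 29313959, that lie 17 nt apart. RefSeq lists 2 promoter windows for EPB41 on the plus strand of GRCh38.p14, each from 250 bases before to 50 bases after a transcript start, whose starts lie 27469 bases apart; positions were not converted between builds, and the windows were not assigned to first exons. They are shown because first exon use reports on which promoter was active. Capitals mark TGACGTCA and CCAAT on either strand.

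Promoter window 1, chr1:28886850-28887149: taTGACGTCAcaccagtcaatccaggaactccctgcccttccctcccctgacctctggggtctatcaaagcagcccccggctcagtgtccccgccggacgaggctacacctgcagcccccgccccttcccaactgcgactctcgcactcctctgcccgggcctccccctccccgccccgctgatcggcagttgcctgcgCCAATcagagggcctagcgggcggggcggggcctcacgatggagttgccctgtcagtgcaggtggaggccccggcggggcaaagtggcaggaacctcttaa
Promoter window 2, chr1:28914319-28914618: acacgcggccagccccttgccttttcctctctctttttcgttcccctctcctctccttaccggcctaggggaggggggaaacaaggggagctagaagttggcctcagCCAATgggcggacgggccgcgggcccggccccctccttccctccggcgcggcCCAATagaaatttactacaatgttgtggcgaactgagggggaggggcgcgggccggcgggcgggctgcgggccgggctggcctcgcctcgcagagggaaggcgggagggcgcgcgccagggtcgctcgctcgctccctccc

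Of 35116 promoter windows of the same length, 1.85% hold TGACGTCA and 34.6% hold CCAAT. Window 1 held 1 match of each, and window 2 held 2 of CCAAT and 0 of TGACGTCA. GGGCGG, the core of the GC box, searched like the others on both strands, was found at 4 places in window 1 and 2 in window 2, and in 45.0% of all windows; neighbouring matches in window 1 share a base, and no match overlaps one of another motif. AGATAA, letters bound by GATA factors, had 0 matches in both and was found in 10.3% of all windows. GC content was 67.7% and 70.0%, against a median of 58.7%.

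Most annotated first exon reads came from the first exon farthest upstream. It gave 67.0%, 76.8% and 72.9% of them in wild-type libraries and 81.7%, 79.4% and 75.9% in S34F libraries. Its main junction averaged 9.78 RPM in wild type and 12.5 in S34F. The junction of the second first exon averaged 0.52 and 0.64, and that of the third 3.31 and 2.65. The next junction of the gene, from 29314418 to 29319841, averaged 24.3 and 28.9. The shares are therefore of first exon reads, not of all transcripts. Wild-type replicate 2 lay above S34F replicate 3, so that the groups overlapped (72.2% ± 4.9 and 79.0% ± 2.9, two-sided exact permutation p = 0.2, adjusted p = 0.27). The third first exon gave 29.7%, 18.9% and 23.4% in wild type, against 13.4%, 17.2% and 21.1% with S34F, again with overlap. The second was the least used, with means of 3.74% ± 0.52 and 3.79% ± 1.0.

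The acceptor went with the first exon, counted over the 6 libraries together. The first exon farthest upstream was joined to the downstream acceptor at 29313959 in 1691 reads and to the upstream one at 29313942 in 33. The other first exons were joined to the upstream acceptor in 545 reads and to the downstream one in 0 of them, which allows a share of up to 0.55%. The upstream acceptor took 2.60% ± 1.1 of reads from the first of these exons in wild type and 1.60% ± 0.37 in S34F (edgeR adjusted p = 0.61), a pair of acceptors 17 nt apart that did not differ beyond the replicate spread. Among reads into the upstream acceptor, the third first exon gave 83.2%, 77.3% and 78.5% in wild type, against 64.2%, 78.3% and 83.6% with S34F (edgeR adjusted p = 0.76).

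**Figure D4:**
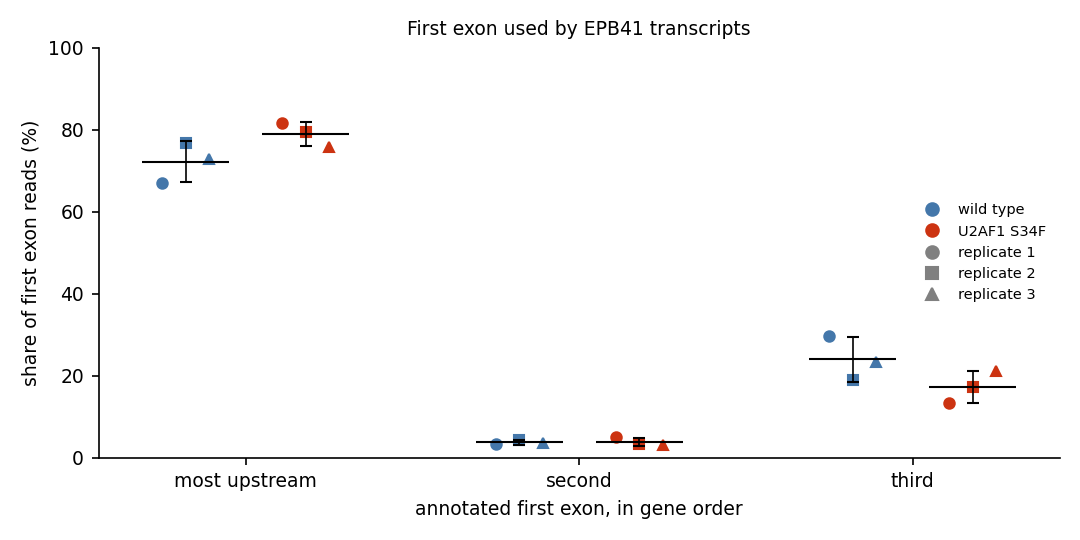
Share of first exon reads (%) from each of the 3 annotated first exons, 1 point per library, with lines and bars for the mean ± SD of 3 libraries. The most upstream exon leads in every library, from 67.0% to 81.7%, and the groups overlap at each exon.

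In the spectrin-actin binding region, 3 short exons of 57, 42 and 63 nt lie between an exon ending before 29379825 and the 177 nt exon from 29391494 to 29391670. They span 29385101 to 29385157, 29385323 to 29385364 and 29386934 to 29386996, and encode 19, 14 and 21 codons if read in frame. The 63 nt exon has the length of the exon known for its late erythroid inclusion. From the first of them to the 105 nt exon at the 3′ end, 8 of 8 annotated exons have a length that is a multiple of 3. Before them it is 4 of 13 annotated exon forms. These count the exon that follows the first exons separately for each of its paired acceptors, and neither form is a multiple of 3.

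Most transcripts skipped all 3 short exons in both groups: the direct junction gave 66.9% ± 9.5 of the annotated reads into the 177 nt exon in wild type and 62.3% ± 6.6 in S34F. The 63 nt exon gave 23.6%, 16.2% and 15.0% in wild type, against 32.2%, 23.9% and 23.7% with S34F. Every S34F library lay above every wild-type library, but S34F replicate 3 and wild-type replicate 1 differed only in the first decimal (18.2% ± 4.6 and 26.6% ± 4.8, two-sided exact permutation p = 0.1, adjusted p = 0.16). In the fit over all reads into this exon edgeR gave an adjusted p of 0.31 for a log2 odds difference of 0.70 with an SE of 0.35. The difference therefore did not pass the threshold.

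Reads entering the 63 nt exon took a larger share after the 57 nt exon than after the exon before the region, in each of the 6 libraries. Of reads leaving the 57 nt exon, 22.2%, 25.4% and 21.6% joined the 63 nt exon in wild type, against 39.6%, 26.8% and 32.4% with S34F. The groups did not overlap, but the difference of 9.83 percentage points (23.1% ± 2.0 and 32.9% ± 6.4) rested on 15 to 116 reads a library and was not called (edgeR adjusted p = 0.26 for a log2 odds difference of 0.77, SE 0.38). Of reads leaving the exon before the region, 15.3% ± 1.0 joined the 63 nt exon in wild type and 20.6% ± 3.6 in S34F (edgeR adjusted p = 0.40 for 0.52, SE 0.33). The cassette measure, which averages reads entering and leaving an exon and sets them against the skipping junction, gave 44.3% ± 2.7 and 60.1% ± 4.4 after the 57 nt exon, a difference of 15.9 points that was not called either (edgeR adjusted p = 0.11). That measure is not inclusion after the 57 nt exon alone, since its leaving reads also come from transcripts that skipped the 57 nt exon.

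The 57 nt exon varied between libraries rather than between groups. Of annotated reads leaving the exon before the region it received 29.2%, 14.8% and 11.8% in wild type, against 23.6%, 14.0% and 16.4% with S34F. Replicate 1 was the highest of each group, and the means differed by -0.59 points (two-sided exact permutation p = 0.9, adjusted p = 0.9). The 42 nt exon was the rarest of the 3: between the 57 and the 63 nt exons its inclusion was 28.5% ± 1.0 in wild type and 22.0% ± 7.9 in S34F (edgeR adjusted p = 0.44), with S34F replicate 3 lowest at 13.2%. Few inclusion reads carried these shares: 19, 13, 6 for wild-type replicates 1 to 3, against 37, 6, 10 for the S34F replicates. From the 42 to the 63 nt exon, S34F replicate 3 had 10 unique reads beside 11 multi-mapped ones. Adding multi-mapped reads moved the difference from -6.49 to -5.02 percentage points (edgeR adjusted p = 0.51).

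**Figure D5:**
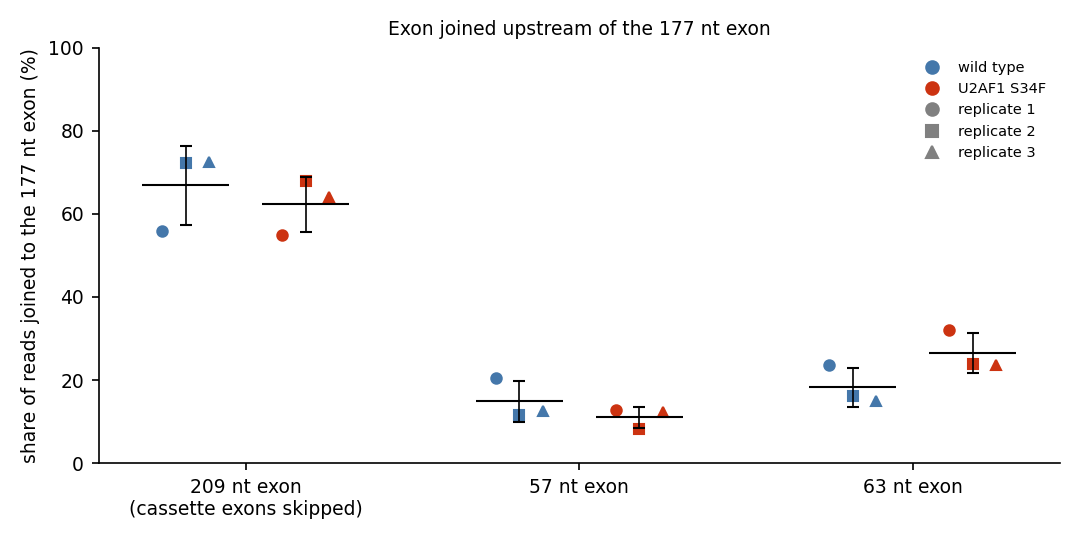
Share of annotated reads joined to the 177 nt exon (%) that come from the 209 nt exon before the region, the 57 nt exon or the 63 nt exon, 1 point per library, with lines and bars for the mean ± SD of 3 libraries. At the 63 nt exon the S34F libraries lie between 23.7% and 32.2% and the wild-type libraries between 15.0% and 23.6%.

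The 209 nt exon that precedes this region begins at a tandem pair of acceptors, 29379615 and 29379618, that lie 3 nt apart. The second is unannotated and was used steadily, by 13.2%, 13.8% and 15.8% of reads in wild type, against 13.3%, 12.7% and 11.7% with S34F. The means, 14.2% ± 1.4 and 12.6% ± 0.84, differed by less than the sum of their spreads (edgeR adjusted p = 0.80).

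Of the 38 acceptor events, 4 had an adjusted p under 0.05 without a minimum difference, against 4.64% of all events. The fourth was a rare unannotated junction from 29391671 to 29422666, downstream of the 177 nt exon. It is named after its values were seen. It held 11, 16 and 11 reads in wild type and 4, 3 and 5 in S34F, which is 1.74% ± 0.33 and 0.436% ± 0.15 of the reads from that site (edgeR adjusted p = 0.0235 for a log2 odds difference of -2.10, SE 0.53). The groups did not overlap, on counts this low; the adjusted p was 0.16 with DESeq2 and 0.11 with limma, and without 1 library at a time it passed only in the fit without wild-type replicate 1. The 450 nt unannotated exon that this junction enters was included at 1.56% ± 0.16 and 0.507% ± 0.11 (edgeR adjusted p = 0.0475). Its inclusion rested on 11, 14 and 8 reads in wild type and 6, 3 and 5 in S34F. Over the alternatives run, with edgeR, DESeq2 or limma, the adjusted p went from 0.0321 to 0.313. It stayed under 0.05 in 2 of them and did not in 10.

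Other annotated exons were nearly always included or nearly always skipped, by the cassette measure. An 80 nt exon at 29315868 to 29315947 was the skipped one, at 0.365% ± 0.18 in wild type and 0.314% ± 0.25 in S34F (edgeR adjusted p = 0.92). The 105 nt exon at 29323727 to 29323831 was included at 97.1% ± 0.99 in wild type and 97.9% ± 0.43 in S34F. Inclusion of the 129 nt exon at 29424319 to 29424447 was 96.0% ± 0.91 and 97.3% ± 0.56, and that of the 102 nt exon at 29435848 to 29435949 was 97.0% ± 0.46 and 97.9% ± 0.34. The means of these 3 exons were slightly higher in S34F, and none passed (edgeR adjusted p of 0.49, 0.35 and 0.35).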

How the data were processed

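Each of the 6 libraries came with a deposited splice junction table in STAR's output format; STAR and hg19 are named in the submitters' processing notes, without version or role, and the annotation and filters are not given in the sources used here. The authors' deposited values are raw counts of uniquely mapped reads per junction, used throughout, and of multi-mapped reads, used only as an alternative. Tables were joined by position, with a missing junction counted as 0.

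Shares were computed at each splice site or cassette exon of at most 500 nt from junctions with a canonical-type motif. Events were kept with 20 or more reads in each library and 10 or more on either side in total. edgeR 4.0.16 (R 4.3.3; quasi-likelihood test, legacy mode, robust) was fitted over all events of a class, with an intercept per library, and p-values were adjusted by Benjamini-Hochberg over the class; junction levels used TMM scaling. Alternatives were DESeq2 1.42.0, limma 3.58.1, other read minimums, multi-mapped reads, a replicate block and leaving out each library. The fits were also run on simulated data, whose outcome is not given here and is not evidence for the EPB41 results. The members, regions and tests were chosen with earlier results of these data known. Named events were those called, those differing by 10 points or more, and alternatives at 5% or more of a splice site in the first exon, cassette and 3′ end regions. Permutation tests ran in Python 3.11.15 with scipy 1.17.1.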

Additional observations from a re-analysis of the deposited data

How the results depend on the processing

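The 2 acceptor calls held under DESeq2, a minimum of 50 reads, no low-count filter, added multi-mapped reads and the replicate block. Of all acceptor events these fits called 0.291%, 1.90%, 0.148%, 1.71% and 1.79%. The EPB41 count was also 2 when each library was left out. Those fits called from 0.185% (without S34F replicate 3) to 4.15% (without wild-type replicate 1) of all acceptor events. The EPB41 count was 0 with limma, which called 0 in the class, and 4 with no minimum difference, against 4.64% of the class. Donor calls were 0 under each alternative, which says little where few were made in the class: 0 of 48269 with limma and 4 of 39059 without S34F replicate 3. The cassette count of 1 became 0 with limma, 2 with no minimum difference and from 0 to 1 without each library, 0 being the fit without S34F replicate 3. Of all cassette events, limma and the fit without S34F replicate 3 called 0. The other fits without 1 library called from 0.405% to 6.17%, and the fit with no minimum difference 5.76%. The junction level count of 0 became 2 with no low-count filter, both at the 63 nt exon, in a fit that called 5138 of 218590 junctions against 229 of 113065. The level difference of 84.5 RPM ranged from -31.0 (without S34F replicate 1) to 151 (without S34F replicate 2). With the replicate block, an exact sign-flip test of the 3 same-numbered pairs gave p = 0.75 for a difference of 84.5. Samples share only a replicate number: correlations of same-numbered deviations were -0.086, -0.023 and -0.036 in acceptor choice, and no sample correlated best with its own number. Without S34F replicate 1 the log2 odds of the third first exon turned to 0.16 (edgeR adjusted p = 0.92; lowest -0.76 over the libraries left out), and without wild-type replicate 1 those of the second intron at the 3′ end to 0.23 (edgeR adjusted p = 0.88; lowest -0.70). The cause was not tested. Low reads at the rare junctions limit what can be detected there.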
